A study of Mus musculus with 81 samples.

Results

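Bckdhb encodes the beta subunit of the E1 component of the branched-chain ketoacid dehydrogenase complex. Strains of the BXD mouse family were ordered by their liver Bckdhb level, and the 13 highest were compared with the 13 lowest over all other genes. The ranking used the mean of the chow and high-fat scores of the only Bckdhb probe set. Of 42 strains, 39 had both diets and could be ranked, so the comparison took 52 of 81 arrays and set 13 ranked strains aside. The groups were therefore chosen on Bckdhb, and its own values below are a description with no test.

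The mice, males fasted overnight and perfused before the liver was taken at 29 weeks of age, belonged to the BXD recombinant inbred lines, bred from C57BL/6J and DBA/2J, and to these parents. Cohorts ate Harlan 2018 chow, or the Harlan 06414 high-fat diet from week 8 on. Each array holds the pooled RNA of a cohort, about 5 mice, so a value is that of a pool and p-values measure the spread between the pools of different strains, not between animals. The high group was BXD70, BXD66, BXD101, BXD75, BXD44, BXD89, BXD64, BXD84, BXD90, BXD79, BXD83, BXD73 and BXD97. The low group was C57BL/6J with BXD48, BXD96, BXD62, BXD65, BXD100, BXD68, BXD98, BXD87, BXD55, BXD56, BXD43 and BXD51. The values are scores with a mean of 8 and an SD of 2 on every array, on a scale whose log base is not stated, so differences are in score units and no fold changes are given. The median of the negative controls was 6.69. Array medians lay between 7.66 and 7.81 over the 52 arrays and overlapped between the groups. The hepatocyte gene Alb, which encodes albumin, lay between 15.4 and 15.5 in the high strains and between 15.3 and 15.5 in the low strains.

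The complex sits in the mitochondrial matrix and carries out the committed step in the breakdown of leucine, isoleucine and valine. Its E1 component is built from the products of Bckdha and Bckdhb, Dbt supplies E2 and Dld supplies E3. The kinase Bckdk switches E1 off and the phosphatase Ppm1k switches it on. Liver is known for a high activity of the complex and a low activity of the transaminase that precedes it.

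The sequences around the start of Bckdhb and of 3 of its neighbours on chromosome 9 are shown because the results below turn on the genes next to Bckdhb. They run from 250 bases before to 50 bases after a RefSeq start site (GRCm38.p6, plus strand) and are reference sequence, not that of these strains. RefSeq lists 2 such windows for Bckdhb and the one nearest the annotated gene start is given, at chr9:83924887-83925186. The windows of Mrap2, Nt5e and Slc9a9 lie at chr9:87144056-87144355, chr9:88327359-88327658 and chr9:94669642-94669941. Capitals mark a CCAAT box (CCAAT, or ATTGG on the other strand) or a GC box (GGGCGG, or CCGCCC on the other strand). TATAAA was searched on both strands too and had no match in these windows.
Bckdhb: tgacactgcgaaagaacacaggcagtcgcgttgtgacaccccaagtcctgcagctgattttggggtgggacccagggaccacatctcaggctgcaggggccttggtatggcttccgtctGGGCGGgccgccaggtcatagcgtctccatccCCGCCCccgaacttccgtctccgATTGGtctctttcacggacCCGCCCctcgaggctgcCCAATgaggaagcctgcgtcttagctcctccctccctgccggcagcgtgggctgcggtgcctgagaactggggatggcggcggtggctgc
Mrap2: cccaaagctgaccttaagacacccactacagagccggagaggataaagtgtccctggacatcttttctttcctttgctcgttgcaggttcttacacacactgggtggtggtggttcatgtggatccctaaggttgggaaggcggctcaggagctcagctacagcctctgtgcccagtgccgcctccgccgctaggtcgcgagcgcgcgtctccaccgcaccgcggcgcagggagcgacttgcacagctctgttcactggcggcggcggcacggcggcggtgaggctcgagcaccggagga
Nt5e: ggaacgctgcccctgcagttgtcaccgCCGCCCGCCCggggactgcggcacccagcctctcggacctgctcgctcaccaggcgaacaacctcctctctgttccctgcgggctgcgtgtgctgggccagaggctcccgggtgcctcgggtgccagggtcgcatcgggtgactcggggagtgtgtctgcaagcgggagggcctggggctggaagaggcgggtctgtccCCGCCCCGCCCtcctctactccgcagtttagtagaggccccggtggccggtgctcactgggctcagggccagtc
Slc9a9: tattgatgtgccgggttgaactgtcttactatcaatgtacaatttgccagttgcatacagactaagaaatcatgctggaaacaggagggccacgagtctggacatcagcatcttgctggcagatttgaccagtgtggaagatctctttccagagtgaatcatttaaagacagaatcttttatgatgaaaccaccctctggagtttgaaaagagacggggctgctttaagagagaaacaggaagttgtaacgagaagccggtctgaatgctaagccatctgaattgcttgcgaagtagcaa

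The Bckdhb window held 2 CCAAT boxes, 1 on each strand, and 3 GC boxes, 1 as written and 2 on the other strand. The Nt5e window held 4 GC boxes on the other strand, in 2 overlapping pairs. The windows of Mrap2 and Slc9a9 held none of these motifs. Of the 32851 windows in the table, 37.4% held a CCAAT box, 35.7% a GC box and 13.6% TATAAA, on either strand. GC content was 65.0% for Bckdhb, 62.7% for Mrap2, 71.0% for Nt5e and 43.7% for Slc9a9.

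Bckdhb did not vary evenly over the strains but fell into 2 levels. Strain means ran from 12.62 to 12.87 in 25 strains and from 11.63 to 12.24 in the other 14, and no strain lay in the 0.377 units between. Both parents were ranked: DBA/2J was at 12.77, in the upper level but outside the high group, and C57BL/6J was at 11.90, in the low group. In the high group the lowest, median and highest strain means were 12.78, 12.81 and 12.87. In the low group they were 11.63, 11.91 and 12.06. The lowest members of the high group, BXD73 and BXD97, were both at 12.78, and BXD71 and BXD95, just outside it, were both at 12.77. The highest member of the low group, BXD48, was at 12.06, and BXD61, just outside it, was at 12.24. The upper edge of the choice thus cut through strains of 1 level, while the low group held 13 of the 14 strains of the lower level.

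**Figure D1:**
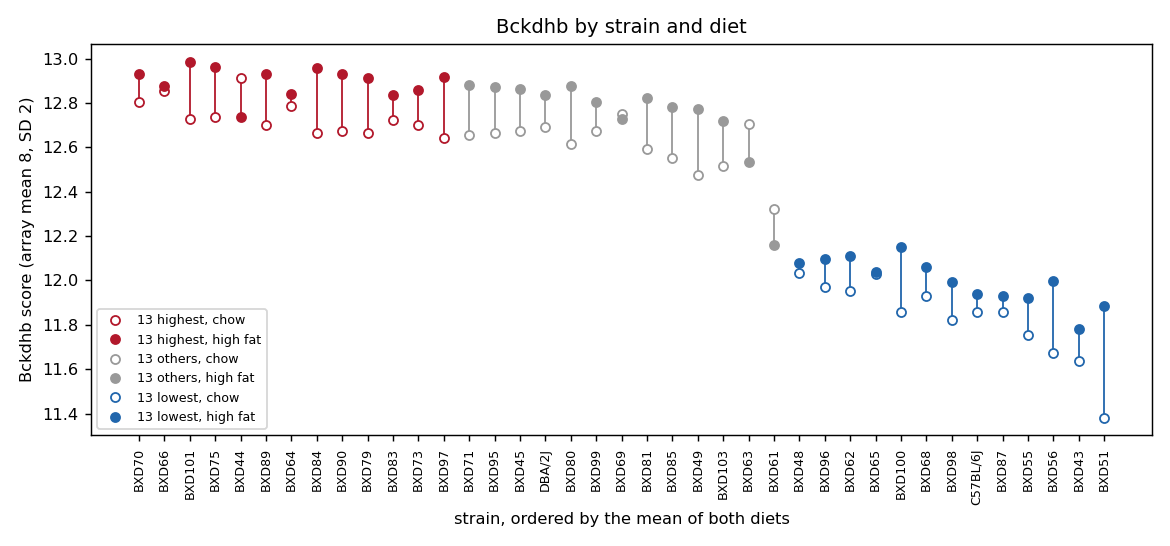
Bckdhb score of 39 strains, ordered from the highest to the lowest mean of both diets; open circles are chow pools, filled circles high-fat pools, and a line joins the pools of a strain. Strain means of 25 strains lie at 12.62 or above and those of 14 strains at 12.24 or below.

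The 25 upper and the 14 lower strains did not overlap on either diet, but BXD61 lay between the levels on chow. There the lowest upper strain was at 12.475, BXD61 at 12.323 and the next lower strain, BXD48, at 12.035, so BXD61 was closer to the upper strains. In the high-fat pools the lowest upper strain was at 12.533 and the highest lower strain, BXD61, at 12.16. On chow the high strains lay between 12.64 and 12.91 with a median of 12.72, and the low strains between 11.38 and 12.04 with a median of 11.86. In the high-fat pools the high strains lay between 12.74 and 12.99, median 12.92, and the low strains between 11.78 and 12.15, median 12. The groups did not overlap on either diet, which the choice of strains brought about. The high-fat pool was above the chow pool in 12 of 13 high strains, by 0.161 ± 0.133 units (SD, n = 13), and in 13 of 13 low strains, by 0.171 ± 0.134 (SD, n = 13). Among high strains BXD44 went the other way. The 3 strains measured on 1 diet lay in the range of the lower level, BXD50 at 11.93 on the high-fat diet and BXD60 and BXD92a at 11.91 and 12.11 on chow.

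Bckdhb aside, no gene passed the test between high and low strains. With limma and Benjamini-Hochberg adjustment over 21764 genes, 0 passed an adjusted p of 0.05 (percent called 0), and the smallest adjusted p was 0.163. The groups overlapped in every gene (percent not overlapping 0). At an unadjusted p under 0.05 there were 1223 genes (5.62% of those tested), 582 (2.67%) higher and 641 (2.95%) lower in the high strains, and the median difference of all genes was -0.0023 units. Calls appeared when the same question was put in other ways: 7 genes (0.0322%) with 25 strains above against 14 below the gap in Bckdhb, 11 (0.0505%) with the 52 arrays and strain as a random block, 35 (0.161%) without the block and 9 (0.0414%) with the Bckdhb level as a number over 39 strains. Of these, 6, 6, 8 and 7 lay within 50 measured genes of Bckdhb. The split at the gap was added after the data were seen, and its strains include all those of the main comparison. The fit without a block counts the pools of a strain as independent.

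Genes with a low unadjusted p were most frequent next to Bckdhb. Among the 50 measured genes on each side in the RefSeq gene order, 25 of 100 had an unadjusted p under 0.05, against 5.62% of all genes, with 12 higher and 13 lower in the high strains. Of the 25 such genes, 19 lay among the 50 that follow Bckdhb and 6 among the 50 that precede it. The share was 22% of the 50 genes up to 25 places away and 28% of those 26 to 50 places away. It was 8.00% at 51 to 100 places, 5.50% beyond 100 and up to 200, and 4.31% of the 789 genes farther away on the chromosome, beside 5.62% of 19451 genes on other chromosomes. Neighbouring genes are inherited together in recombinant lines, so these genes are not independent of each other. Whether strain variants under the probes changed the scores of Bckdhb or of these genes was not tested. With the split at the gap the count was 23 of 100, against 5.61% of all genes.

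**Figure D2:**
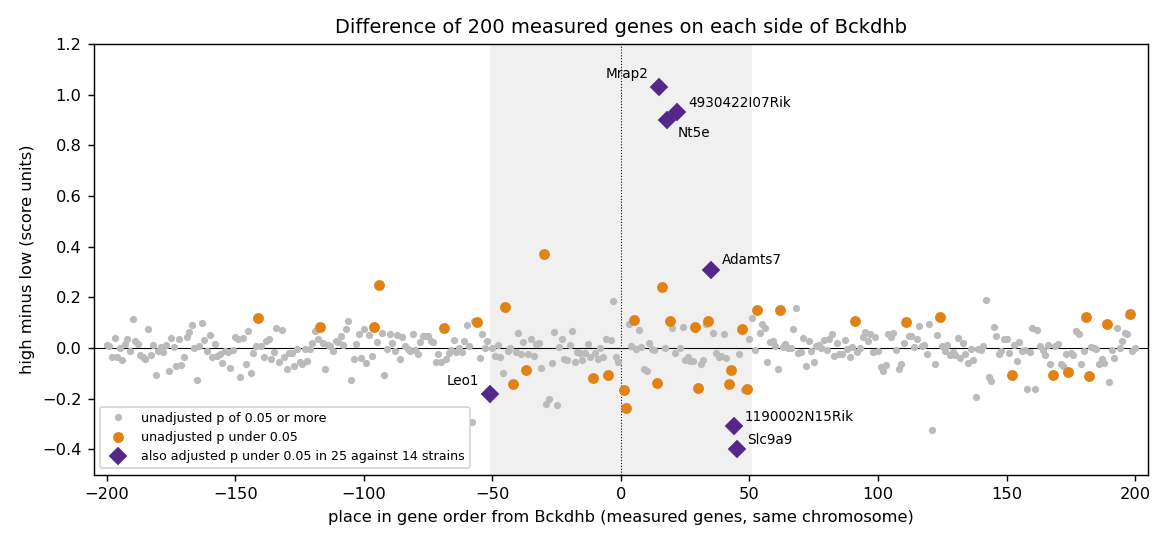
Difference between the 13 high and the 13 low strains (y axis, score units) for the 200 measured genes on each side of Bckdhb, in gene order (x axis). Grey points have an unadjusted p of 0.05 or more, orange points one under 0.05, and diamonds also passed an adjusted p of 0.05 with 25 against 14 strains; the shaded band holds the 50 genes on each side, where 25 of 100 are coloured.

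Mrap2, which encodes an accessory protein of melanocortin receptors, showed the smallest p of all genes. It lies 15 measured genes after Bckdhb. Strain means in the high group ran from 6.87 over a median of 8.44 to 9.00, and in the low group from 6.75 over a median of 7.02 to 8.55. The median of the low strains was close to that of the negative controls. The groups overlapped through BXD79, a high strain at 6.87, and through BXD62 and BXD87, low strains at 8.21 and 8.55. The difference was 1.03 ± 0.20 units (SE, 13 against 13 strains; limma, adjusted p = 0.163). With 25 strains above against 14 below the gap it was 1.05 ± 0.17 and passed (limma, adjusted p = 0.00313). Without BXD79 it was 1.15 (adjusted p = 0.00404) and without BXD87 1.14 (adjusted p = 0.00971), so the call depended on either of these strains. On the high-fat arrays alone it also passed, at 1.10 ± 0.18 (limma, adjusted p = 0.0204; percent called 0.00459), and on chow alone it was 0.96 ± 0.25 (adjusted p = 0.543).

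The zinc finger gene 4930422I07Rik (Zfp949 in RefSeq), 22 genes after Bckdhb, again had 2 levels with nothing between 8.46 and 9.13. High strains ran from 8.21 over 9.55 to 9.81 and low strains from 7.98 over 8.31 to 9.70. BXD79 was the only high strain at the lower level, while BXD62, BXD65, BXD87 and BXD56 were low strains at the upper level. The difference was 0.93 ± 0.20 (SE; limma, adjusted p = 0.163), and 0.92 ± 0.14 with the split at the gap (limma, adjusted p = 0.00153). Without BXD79 it passed in the main comparison too, at 1.03 (limma, adjusted p = 0.0214).

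Nt5e encodes the cell-surface enzyme that releases adenosine from AMP, and lies 18 genes after Bckdhb. High strains ran from 8.72 over 10.1 to 10.8 and low strains from 8.09 over 9.09 to 10.4. Here the groups overlapped more widely, with BXD79 lowest of the high strains and BXD62 highest of the low ones. The difference was 0.90 ± 0.21 (SE; limma, adjusted p = 0.283), and 0.91 ± 0.16 with the split at the gap (limma, adjusted p = 0.00505).

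Adamts7, the gene of a secreted metalloprotease 35 places after Bckdhb, differed by less. High strains ran from 8.72 over 9.28 to 9.44 and low strains from 8.69 over 8.91 to 9.18, a difference of 0.31 ± 0.06 (SE; limma, adjusted p = 0.163). BXD79 was again the lowest high strain, and BXD56 and BXD87 were the highest low strains. It passed with the split at the gap, at 0.27 ± 0.05 (limma, adjusted p = 0.0134), and without BXD79 at 0.35 (limma, adjusted p = 0.00404).

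Other neighbours were lower where Bckdhb was high. Slc9a9, a sodium and hydrogen exchanger of endosomes 45 places after Bckdhb, ran from 8.12 over 8.27 to 8.73 in high strains and from 8.30 over 8.76 to 9.27 in low strains. BXD97 was the highest high strain and C57BL/6J the highest low one. The difference was -0.40 ± 0.08 (SE; limma, adjusted p = 0.163), and -0.41 ± 0.07 with the split at the gap (limma, adjusted p = 0.00453). The gene before it in order, 1190002N15Rik (Dipk2a in RefSeq), ran from 8.38 over 8.56 to 9.07 in high strains and from 8.34 over 9.02 to 9.14 in low strains. BXD79 was the highest high strain, and BXD87 and BXD62 the lowest low ones. Its difference was -0.31 ± 0.08 (SE; limma, adjusted p = 0.400), and -0.30 ± 0.06 with the split at the gap (limma, adjusted p = 0.0253).

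**Figure D3:**
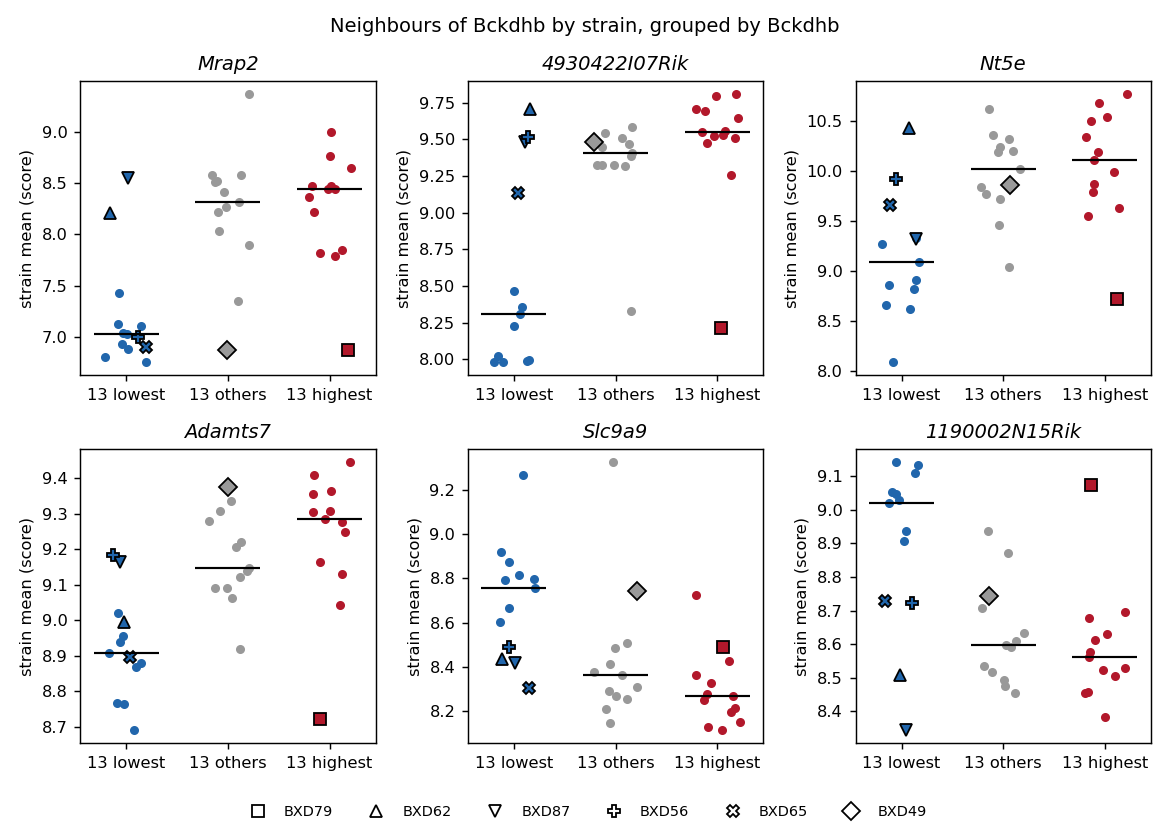
Strain means (y axis, score; mean of the chow and high-fat pools) of 6 neighbours of Bckdhb in the 13 low, 13 other and 13 high strains; lines are medians and outlined symbols mark 6 named strains. BXD79 lies with the low strains for Mrap2 at 6.87 and 4930422I07Rik at 8.21, and BXD62 and BXD87 lie with the high strains for these genes.

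On the other side of Bckdhb, Leo1, a component of the Paf complex that travels with RNA polymerase, is 51 places before it and so just outside the window of neighbours. High strains ran from 7.81 over 7.96 to 8.17 and low strains from 7.94 over 8.13 to 8.31, a difference of -0.18 ± 0.04 (SE; limma, adjusted p = 0.213). With the split at the gap it passed (-0.18 ± 0.03; limma, adjusted p = 0.00505), but another probe set of Leo1, the one with the highest variance, gave 0.08. Gsta4, a glutathione transferase that detoxifies lipid aldehydes, lies 30 places before Bckdhb and was higher by 0.37 ± 0.10 (SE; limma, adjusted p = 0.461). Its high strains ran from 11.1 to 11.7 and its low strains from 10.3 to 11.4. Myo6, an unconventional myosin 11 places before, was lower by -0.12 ± 0.04 (SE; limma, adjusted p = 0.588). It ran from 10.04 to 10.24 in high strains and from 10.09 to 10.37 in low strains. Gsta4 and Myo6 did not pass with the split at the gap either, but Gsta4 passed with the Bckdhb level as a number over 39 strains (limma, adjusted p = 0.0420).

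The remaining 17 neighbours with an unadjusted p under 0.05 were chosen after their values were seen, and none passed adjustment. Before Bckdhb, Bmp5, a bone morphogenetic protein, was 0.16 higher. Hcrtr2, an orexin receptor, Lrrc1, and Hmgn3, a nucleosome-binding protein, were lower by -0.14, -0.09 and -0.11. The 2 genes that follow Bckdhb directly in the order with such a p were Gm8228, 1 place after it, and Fam46a, 2 places after it, at -0.16 and -0.24. Farther on, 4922501C03Rik (Cep162 in RefSeq, a centriole protein) was 0.24 higher, Ube2cbp 0.11, the sorting nexin Snx14 0.11, the chromatin protein Morf4l1 0.11, the folate enzyme Mthfs 0.08 and 2610101N10Rik 0.08. The reductase Cyb5r4 was at -0.14, Tmed3, of secretory transport, at -0.16, Plscr4 at -0.14, the collagen lysyl hydroxylase Plod2 at -0.09 and Pcolce2, of procollagen processing, at -0.16. Hcrtr2, Lrrc1, Hmgn3, Gm8228 and Plod2 had means over all arrays from 5.36 to 6.15, below the median of the negative controls, 6.69.

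Arrays that the comparison did not use were looked at for the same neighbours. On chow, 12 unused strains at the upper Bckdhb level were set against BXD61, BXD60 and BXD92a at the lower level, and on the high-fat diet 12 against BXD61 and BXD50. Of the 25 neighbours, 18 (72.0%) had the same sign on those chow arrays and 19 (76.0%) on those high-fat arrays. Of the 1198 other genes with an unadjusted p under 0.05, 52.6% and 45.9% did. Neighbours are inherited together, so their signs are not independent of each other. In the order chow then high fat, the difference was 1.35 and 1.09 for Mrap2, 0.79 and 1.11 for 4930422I07Rik and 0.32 and 1.26 for Nt5e. It was -0.69 and -0.41 for Slc9a9 and -0.28 and -0.47 for 1190002N15Rik. With 3 and 2 low strains these fits rest on few pools, and only 4930422I07Rik on the high-fat diet passed among the genes just named (limma, adjusted p = 0.00755; percent called 0.00919). The unused strains are not fully separate from the high group either. Over all genes, deviations of BXD80 and BXD103 from the group means correlated with those of the high strain BXD73, at 0.362 and 0.335. Kinship of the lower-level strains in these fits, BXD92a among them, with strains of the 2 groups was not tested. The chow fit called 66 genes (0.303%), with 14.7% of all genes at an unadjusted p under 0.05, beside 0 genes and 5.62% in the main comparison.

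The parents gave a further view, with 1 pool a diet and no replicate. DBA/2J minus C57BL/6J, as the mean of both diets, was 1.65 for Mrap2, 1.09 for 4930422I07Rik, 1.09 for Nt5e and 0.36 for Adamts7. It was -0.91 for Slc9a9, -0.48 for 1190002N15Rik and -0.46 for Leo1. Each had the sign of the difference between high and low strains, a contrast whose low strains include C57BL/6J. These are also the genes that passed with the split at the gap, which has DBA/2J above and C57BL/6J below it. Both parents thus took part in that call, and the match in sign is partly built in. In a fit without C57BL/6J, 16 of 27 neighbours (59.3%) with an unadjusted p under 0.05 had the sign of the parental difference, beside 53.8% of 1194 other genes.

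Likeness to Bckdhb was ranked by Pearson's correlation over the 39 strain means, and no pooled value is given because the strains form 2 levels. The most alike genes were 4930422I07Rik, Nt5e, Mrap2, Adamts7 and Gsta4. The most opposite were Leo1, Slc9a9, 1190002N15Rik, the cytokine gene Il20 and Myo6, so 9 of the 10 lay on the chromosome of Bckdhb. Within the 25 strains of the upper level and the 14 of the lower level, r was 0.13 and 0.05 for Mrap2, 0.08 and 0.06 for 4930422I07Rik, 0.15 and 0.02 for Adamts7, 0.14 and 0.35 for Nt5e and -0.20 and 0.49 for Gsta4. In the same order it was -0.14 and -0.09 for Leo1, -0.47 and 0.08 for Slc9a9, -0.27 and -0.09 for 1190002N15Rik, -0.19 and -0.41 for Il20 and 0.06 and -0.65 for Myo6. Within a level the values thus ranged from near 0 to -0.65 and differed between the levels, in sign too for Gsta4, Slc9a9 and Myo6. The genes of an array share its RNA pool, and these values are a description.

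None of the other 5 measured members of the complex and its control, Bckdha, Dbt, Dld, Bckdk and Ppm1k, passed. None of them had an unadjusted p under 0.05, where 5.62% of all genes had one; their median difference was 0.03 units. Bckdha, the partner of Bckdhb in E1, ran from 11.4 over 11.5 to 11.7 in high strains and from 11.3 over 11.5 to 11.6 in low strains. Its difference was 0.01, with a 95% interval from -0.06 to 0.09, on a scale where the group medians of Bckdhb lay at 12.81 and 11.91. Dbt was at 0.08 ± 0.05, Dld at 0.03 ± 0.06 and the kinase Bckdk at 0.00 ± 0.04 (SE, 13 against 13 strains). The phosphatase Ppm1k ran from 11.01 over 11.27 to 11.39 in high strains and from 10.88 over 11.12 to 11.46 in low strains, at 0.11 ± 0.06 (SE; limma, adjusted p = 0.903). The 12 unused strains of the upper level gave Ppm1k the other sign against the same low strains, -0.10. On the high-fat arrays alone Ppm1k was at 0.17 (limma, unadjusted p = 0.0269), and on the unused high-fat arrays at -0.28 (limma, unadjusted p = 0.0252). Dbt was at 0.10 with the split at the gap (limma, unadjusted p = 0.0227), at 0.11 with the 12 unused strains, and at 0.29 and -0.07 on the unused chow and high-fat arrays (limma, unadjusted p = 0.0279 and 0.487). None of these values passed adjustment.

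Genes on either side of the complex in branched-chain amino acid breakdown are counted here beside the 5.62% of all genes with an unadjusted p under 0.05. In transport and transamination 1 of 10 measured genes had an unadjusted p under 0.05, the amino acid exchanger Slc7a8, at -0.20 ± 0.08. In leucine breakdown it was 1 of 9, Mccc2, a subunit of methylcrotonyl-CoA carboxylase, at 0.11 ± 0.04. In isoleucine and valine breakdown it was 0 of 11, and Acad8, isobutyryl-CoA dehydrogenase, had the smallest p at 0.07 ± 0.04. Propionate and cobalamin genes had 0 of 11, with Mmaa at -0.10 ± 0.05. No gene of these lists passed adjustment.

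Cofactor and related enzymes were read against the same 5.62% of all genes. Among the other lipoate-dependent dehydrogenases 1 of 17 had an unadjusted p under 0.05, Amt of the glycine cleavage system, at 0.14 ± 0.05; it lies on the same chromosome, 198 places after Bckdhb. Lipoate and iron-sulfur supply had 1 of 12, Isca1 at 0.07 ± 0.03. Biotin and thiamine supply had 2 of 7, both higher, where 2.67% of all genes were higher at that p: Hlcs, which attaches biotin to the carboxylases, at 0.18 ± 0.06, and the thiamine transporter Slc19a3 at 0.22 ± 0.10. The 12 unused strains of the upper level gave Amt 0.074, Isca1 -0.004, Hlcs -0.05 and Slc19a3 0.03 against the same low strains. On the unused chow and high-fat arrays Hlcs was at -0.507 and -0.205, and Slc19a3 at -0.262 and -0.163. Lysine and 2-hydroxyglutarate genes had 0 of 8, with Aadat at 0.09 ± 0.07, D2hgdh at -0.06 ± 0.06 and, from the lipoate list, Dhtkd1 at -0.02 ± 0.16. Cox7a2l, a respiratory chain assembly gene, was at 0.06 ± 0.09. None passed adjustment.

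In central metabolism the tricarboxylic acid cycle had 2 of 18 genes at an unadjusted p under 0.05, where 5.62% of all genes were, citrate synthase (Cs) at -0.12 ± 0.04 and the malate dehydrogenase Mdh2 at -0.11 ± 0.04. Fatty acid oxidation had 0 of 15, with Cpt2 at -0.10 ± 0.05. Gluconeogenesis and insulin signalling had 2 of 15, the insulin receptor Insr at 0.12 ± 0.04 and the coactivator Ppargc1a at 0.14 ± 0.05. The amino acid stress response had 3 of 15, asparagine synthetase (Asns) at 0.38 ± 0.18, Trib3 at 0.10 ± 0.05 and Psph at -0.08 ± 0.04. Interferon response genes had 0 of 20, with Rsad2 at 0.21 ± 0.16, and acute phase genes 0 of 18, with the fibrinogen gene Fgb at 0.06 ± 0.03. Against the same low strains, the 12 unused strains of the upper level gave Cs -0.099, Mdh2 -0.118, Insr 0.03 and Ppargc1a -0.069. They gave Asns 0.418, Trib3 0.016 and Psph -0.006. None passed adjustment.

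Fatty acid and triglyceride synthesis genes leaned lower in the high strains, with 16 of 18 below 0, a median of -0.13 beside -0.0023 over all genes, and 5 of 18 at an unadjusted p under 0.05 where 2.95% of all genes were lower at that p. The 5 were the desaturases Fads1 and Fads2 at -0.13 ± 0.06 and -0.14 ± 0.06, the elongase Elovl6 at -0.33 ± 0.14, the transcription factor Mlxipl at -0.11 ± 0.05 and Pnpla3 at -0.15 ± 0.06. Elovl6 ran from 10.7 over 11.1 to 11.7 in high strains and from 10.7 over 11.4 to 12.4 in low strains. The groups overlapped over most of their range. The 18 genes come from the same pools and can vary together, so they are not independent of each other. With the split at the gap the count was 2, with the 12 unused strains of the upper level 1, and on chow arrays alone 0. Leaving out BXD65, BXD55 or BXD51 in turn also brought it to 2. Signs still leaned lower where the count fell. Below 0 were 15 of 18 genes with the split at the gap, 15 with the 12 unused strains and 17 on chow alone. In this order the medians were -0.0756, -0.0345 and -0.1356. The unused chow arrays gave 4 lower and 1 higher with a median of -0.21 (8.64% of all genes lower). The unused high-fat arrays went the other way, with 13 of 18 above 0, a median of 0.15, 2 higher (2.46% of all genes) and 0 lower (2.61%). Mlxipl was at 0.47 and 0.32 on these chow and high-fat arrays. In limma none of the 18 passed adjustment in any of these fits.

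Markers of Kupffer cells, the macrophages resident in liver, were lower in the high strains as a list. All 13 measured markers lay below 0, with a median of -0.23, and 10 of 13 had an unadjusted p under 0.05, where 2.95% of all genes were lower at that p; none passed adjustment. The 13 markers come from the same pools and can vary together, so they are not independent of each other. The complement genes C1qa, C1qb and C1qc were at -0.23 ± 0.07, -0.23 ± 0.10 and -0.29 ± 0.11, and the smallest adjusted p, that of C1qa, was 0.533 (limma). Timd4 and Clec4f, which mark resident Kupffer cells, were at -0.25 ± 0.08 and -0.17 ± 0.07. Vsig4 was at -0.24 ± 0.10, Marco at -0.18 ± 0.08, Emr1 (Adgre1 in RefSeq, the F4/80 antigen) at -0.28 ± 0.12, Csf1r at -0.18 ± 0.08 and Itgam at -0.12 ± 0.05.

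The mean of the 13 macrophage markers ran from 9.33 over 9.57 to 9.78 in the high strains and from 9.40 over 9.77 to 10.1 in the low strains, so the groups overlapped. In whole liver, fewer cells of a type and less RNA per cell cannot be told apart. The count depended on which strains of the upper level were taken: the 12 that the ranking set aside, against the same 13 low strains, gave 0 of 13 at an unadjusted p under 0.05 and lower, where 2.38% of all genes were, and a median of -0.12. With 25 against 14 strains the count was 10 (3.12% of all genes), on chow alone 5 (2.4%) and on the high-fat diet alone 10 (2.7%). The unused chow arrays, 12 against 3 strains, gave 9 of 13 with a median of -0.80 (8.64% of all genes), though the Kupffer cell marker Clec4f was at 0.52. Other lists had such genes in that fit as well: 7 of 10 stellate and matrix markers had an unadjusted p under 0.05 and were lower (median -0.36), as did 4 of 9 endothelial markers and 7 of 18 acute phase genes. All 10 hepatocyte markers lay above 0. Of these genes Orm3 and Lcn2, both acute phase genes, passed there, at -1.70 and -2.88 (limma, adjusted p = 0.0171 and 0.0364). The unused high-fat arrays, 12 against 2, gave 1 of 13 with a median of 0.01 (2.61%). In the main comparison, lists of the other cell types held fewer such genes: sinusoidal endothelium had 1 of 9 lower (Cdh5, -0.12 ± 0.06), T and natural killer cells 2 of 10 (Nkg7, -0.14 ± 0.06, and Cd3d, -0.11 ± 0.05), and none passed adjustment. Hepatocyte, stellate, cholangiocyte, B cell, erythroid, pancreatic acinar and adipocyte lists had no gene at an unadjusted p under 0.05. Their smallest p belonged to Apoa1 (0.04), Reln (0.14), Cftr (-0.09), Igj (-0.09), Alas2 (0.15), Cpb1 (0.06) and Adipoq (-0.05), as differences in score units. With the 12 unused strains against the same low strains, all 16 acinar markers lay above 0, with a median of 0.19. At an unadjusted p under 0.05, 5 of 16 were higher, beside 451 of 21764 genes, and none passed adjustment. The mean of the acinar list reached 8.07 in the strains set aside, beside 7.09 in the high and 7.15 in the low strains.

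**Figure D4:**
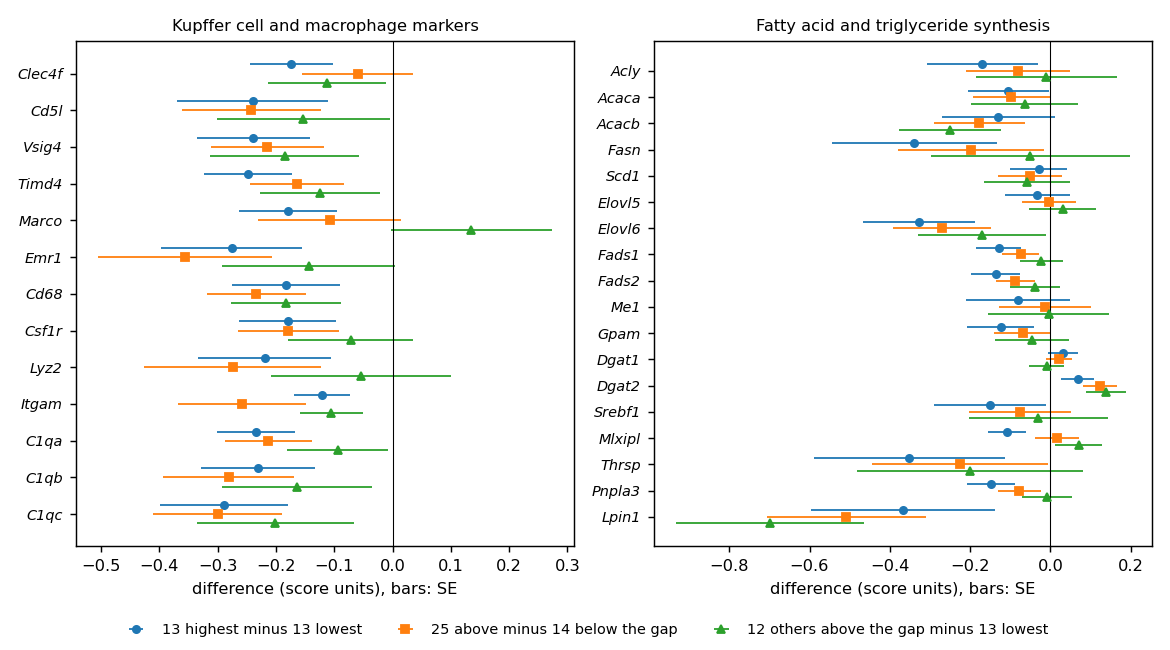
Differences (x axis, score units) of 13 macrophage markers and 18 fatty acid and triglyceride synthesis genes, for the 13 highest minus the 13 lowest strains (circles), 25 strains above minus 14 below the gap in Bckdhb (squares) and 12 other strains above the gap minus the 13 lowest (triangles); bars are SE. All circles of the macrophage panel lie below 0, and none of its triangles had an unadjusted p under 0.05.

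Away from the chromosome of Bckdhb, 5 of the 10 smallest p belonged to genes chosen after their values were seen or by likeness, and none passed adjustment. Irak4, a kinase of toll-like receptor signalling, ran from 8.78 over 8.90 to 9.20 in high strains and from 8.92 over 9.25 to 9.51 in low strains, at -0.28 ± 0.06 (SE; limma, adjusted p = 0.163). With the arrays fitted singly and strain as a block it passed, at an SE of 0.051 beside 0.057 on strain means (limma, adjusted p = 0.00486). The monoacylglycerol lipase Abhd6 was at -0.22 ± 0.05 and Il20 at -0.18 ± 0.04, both with an adjusted p of 0.163. Fam134b (Retreg1 in RefSeq, a receptor for turnover of the endoplasmic reticulum) was at 0.19 ± 0.04 and the lysosomal protease Ctsl at 0.20 ± 0.05, with adjusted p of 0.205 and 0.220 (limma). Il20 passed with the Bckdhb level as a number over 39 strains (limma, adjusted p = 0.0489). Its mean over all arrays, 6.60, lay below the median of the negative controls, 6.69. With the 12 unused strains of the upper level against the same low strains, the differences were -0.13 for Irak4, -0.12 for Abhd6, -0.14 for Il20, -0.04 for Fam134b and 0.02 for Ctsl. On the unused chow and high-fat arrays they were -0.24 and -0.13 for Irak4, 0.23 and 0.05 for Abhd6, 0.11 and -0.06 for Il20, -0.18 and 0.11 for Fam134b and -0.03 and 0.08 for Ctsl. Irak4 alone of these 5 kept its sign in all 3. Beside Irak4, the block fit called 4 further genes far from Bckdhb or not placed: LOC100047942 at 0.26, Mtap at 0.31, Ppdpf at -0.39 and Olfr1033 at -0.90. In this order their SE was 0.053, 0.065, 0.084 and 0.195 in the block fit, beside 0.058, 0.08, 0.102 and 0.254 on strain means.

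The metallothioneins Mt1 and Mt2, small metal-binding proteins, had the widest differences among the genes away from Bckdhb named here, at 0.92 ± 0.21 and 0.96 ± 0.24 (SE; limma, adjusted p = 0.283 and 0.370). Mt1 ran from 11.7 over 12.7 to 13.2 in high strains and from 10.4 over 11.6 to 12.8 in low strains. In the 13 strains set aside it ran from 9.87 to 13, below either group at its lower end. With the 12 unused strains of the upper level against the same low strains, Mt1 was at 0.04 and Mt2 at -0.14. In the unused arrays both had the opposite sign, Mt1 at -1.21 ± 0.59 on chow and -1.14 ± 0.77 on high fat, and Mt2 at -1.59 ± 0.82 and -1.19 ± 0.96 (SE).

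The last question was whether diet acted differently in the groups. The high-fat minus chow difference of each strain was compared between the 13 high and the 13 low strains. With limma 0 of 21764 genes passed (percent called 0, smallest adjusted p 1.0), and 767 (3.52%) had an unadjusted p under 0.05; 0 passed also when the 52 arrays were fitted singly with or without strain as a block. The 3 smallest p belonged to Cdnf, a neurotrophic factor gene, 2610301B20Rik and Gm16497. Cdnf and Gm16497 had means over all arrays of 6.44 and 6.39, below the median of the negative controls, 6.69. Cdnf was lower on the high-fat diet in 12 of 13 high strains, with a median of -0.34, and in 5 of 13 low strains, with a median of 0.02. 2610301B20Rik was higher in 13 of 13 high strains, with a median of 0.36, and in 7 of 13 low strains, with a median of 0.09. Gm16497 was higher in 5 of 13 high and 12 of 13 low strains, with medians of -0.06 and 0.23. These differences between the groups were -0.34 ± 0.08, 0.29 ± 0.07 and -0.33 ± 0.08 (SE; limma, adjusted p = 1.0 for each).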

How the data were processed

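Liver RNA pools of BXD strains were measured on Affymetrix whole-transcript arrays. Affymetrix Expression Console is the tool named, per the submitters' processing notes, with no version. How probes were summarised, and with which annotation release, is not given in the sources used here. Values in the deposited tables are scores, with a mean of 8 and an SD of 2 over the 35556 probe sets of every array, so the authors or an upstream tool had standardised each array. Standardising removes any overall shift between arrays, and an array score carries no counting depth: the number of strains limits the precision. The design had assumed log2 values, and the same tests were run on the scores. The 2 deposited tables differed in 0 cells.

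Genes with more than 1 probe set were represented by that of the highest mean, which gave 21765 genes, 21764 without Bckdhb. Symbols are those of the deposited annotation. Of the genes, 17952 matched a RefSeq symbol (GRCm38.p6), 2689 a synonym and 1124 neither. RefSeq was used for names, for gene order by start position and to choose the Bckdhb window nearest the gene start. Places of genes are given in gene order, not as positions of probe sets, because the files name no build. Neighbours are the 50 measured genes on each side of Bckdhb. Members of gene families with similar sequences (Mt, Gst and olfactory receptor genes) can share probes. Probe sequences were not available to test this.

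The chow and high-fat scores of a strain were averaged, which balances diet, and high and low strains were compared with limma (version 3.58.1 under R 4.3.3; a linear model with eBayes, 13 against 13 strains, Benjamini-Hochberg adjustment over all 21764 genes, threshold 0.05). The diet question used the high-fat minus chow difference per strain. The fit was tested on simulated data with known changes. The 26 gene lists and the groups were chosen with earlier results of these data known, so counts within them are descriptions. Genes were named by rule: the members of the complex, for each other list the members that passed or, with none, that with the smallest p, Dhtkd1, D2hgdh and Cox7a2l, the 3 smallest p of the diet question, and the 5 genes most and least like Bckdhb. Others were named after their values were seen: list members and neighbours at an unadjusted p under 0.05, the 10 smallest p, Mt1, Mt2 and genes called in alternatives. Strains of the BXD family can be related: deviations from the group means correlated over all genes at 0.331 for BXD65 and BXD97, which lie in opposite groups, and at -0.106 for BXD48 and BXD96. The high strain BXD73 correlated at 0.362 with BXD80 and at 0.335 with BXD103, both among the 12 unused strains. BXD80 and BXD103 correlated with each other at 0.426. The alternatives changed the arrays, strains, probe sets, filter, centring, weights and prior. The split at the gap in Bckdhb, the 12 unused strains and the unused arrays were added after seeing the data.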

Additional observations from a re-analysis of the deposited data

How the results depend on the processing

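Of 3924 values of the 92 named genes under alternatives, 64 changed sign, 51 passed the test where the main comparison had not, and the other 3809 kept both sign and call. The count of genes called was 0 in the main comparison and under the parents left out, presumed relatives left out, 10 against 10 strains, centring, the filter, the other probe set, weights, another prior and chow alone. It was 7 with the split at the gap (6 neighbours), 11 with the replicate block of strain (6 neighbours), 35 with no block (8), 1 on the high-fat arrays alone (1), 2 with strains ranked on chow and tested on high fat (2), and 9 with the Bckdhb level as a number (7). Leaving out each strain in turn gave 0 to 3 calls, all neighbours (0 to 3), and 22 to 28 neighbours at an unadjusted p under 0.05. That count was 16 on chow, 16 on high fat, 13 with strains ranked on chow and 16 with strains ranked on high fat. The macrophage count of 10 became 6 with 10 against 10 strains, 6 with weights, 0 with the 12 unused strains, 5 on chow, 4 with strains ranked on high fat, 6 with the level as a number, and 7 to 13 with each strain left out. The fatty acid synthesis count of 5 became 3 with 10 against 10 strains, 2 at the gap, 1 with the 12 unused strains, 0 on chow, 2 on high fat, 3 with strains ranked on high fat, 2 with the level as a number, and 2 to 6 with each strain left out. The diet question gave 0 calls under every alternative run, the replicate block included. For sign changes, the 12 unused strains gave Bckdha -0.0003, Dld -0.047, Bckdk -0.028, Ppm1k -0.100, Isca1 -0.0042, Hlcs -0.047, Aadat -0.057, Igj 0.097, Cox7a2l -0.116, Fam134b -0.043, Mt2 -0.135, Mlxipl 0.071, Ppargc1a -0.069 and Marco 0.135. Strains ranked on chow gave Bckdha -0.016, Igj 0.132, Adipoq 0.016, Cox7a2l -0.084, Mlxipl 0.012 and Trib3 -0.030, and strains ranked on high fat gave Bckdk -0.032, Ppm1k -0.049 and Mlxipl 0.0038. The other probe set gave Cox7a2l -0.061, Leo1 0.079, Snx14 -0.014 and Morf4l1 -0.0058. Chow alone gave Dld -0.0038, Bckdk -0.0055 and Dhtkd1 0.0015, and high fat alone gave Igj 0.017 and Cpb1 -0.021. The gap gave Bckdk -0.012, Cox7a2l -0.0014 and Mlxipl 0.017. Bckdk was also -0.013 without presumed relatives, -0.0084 with 10 against 10 strains, -0.0055 with weights and -0.011 with the level as a number. With each strain left out Bckdha ran from -0.0029 to 0.023, Bckdk from -0.0081 to 0.020, Dhtkd1 from -0.080 to 0.033 and Dld from -0.0007 to 0.056. The cause of these changes was not tested. DBA/2J and BXD63 are in neither group, so leaving them out changes nothing and was not run. The number of strains limits the precision, and low strains near the negative controls (median 6.69) limit Mrap2. Means over all arrays lay below that median for the neighbours Gm8228, Hmgn3, Plod2, Lrrc1 and Hcrtr2, which limits them too. The same holds for Il20, Cdnf, Gm16497, Slc19a3, Cd3d, Olfr1033, Cftr, Igj, Cpb1 and Adipoq.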
